A study of Mus musculus with 6 samples.

Results

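Neutrophils store proteins in granules that are filled in a fixed order as the cell matures. Secondary (specific) granules carry iron-binding, antimicrobial and matrix-degrading proteins, and tertiary (gelatinase) granules carry the gelatinase Mmp9. The transcription factor C/EBP epsilon drives much of the secondary granule program, which follows the making of primary granules. The messenger RNAs are made mainly in maturing neutrophils, although Lcn2, Mmp8 and Mmp9 can be induced in other cells, macrophages among them. The genes described here are 10 members of this program, out of 21847 genes in the deposited count table, chosen by symbol as Ltf, Camp, Ngp, Lcn2, Mmp8, Mmp9, Cd177, Olfm4, Chil1 and Pglyrp1.

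The cells were mouse splenocytes depleted of T cells, kept for 3 days on human cord tissue mesenchymal stromal cells (MSCs) that carried Qtracker, a fluorescent quantum dot label. Qtracker positive cells (Qpos, 3 libraries), recorded as having engulfed MSCs, were set against Qtracker negative cells (Qneg, 3 libraries), recorded as not having done so. Both groups went through the co-culture, and the sources used here give no strain, genotype, age or number of mice. The labels call the cells splenic macrophages, and give the gate as CD11b+ Ly6G- in one field and CD11b+ Ly6C- in another. The design text calls the replicates paired and biological without saying whether each was a separate mouse or culture, so the p-values below measure the spread between these libraries, part of which may be technical.

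Library totals were 42490705 to 55506993 estimated counts in Qpos and 33943090 to 44061187 in Qneg. Levels are given as CPM, the counts-per-million scale of TMM-adjusted library totals, in the order of replicates 1, 2 and 3. Qneg replicate 1 stood apart from the other Qneg libraries in its markers. The 7 macrophage markers summed to 7315, 10171 and 10049.6 CPM in Qpos, against 299, 1635 and 1588 CPM in Qneg, and none was at 0 in any library. The 4 B cell markers summed to 127, 177 and 163 CPM in Qpos, against 3537, 1216 and 1279 CPM in Qneg. The 6 neutrophil markers outside the granules (Ly6g, S100a8, S100a9, Csf3r, Cxcr2 and Retnlg) summed to 256, 644 and 659 CPM in Qpos, against 1589.6, 35252 and 35942 CPM in Qneg. Of these 6 markers 5 were lower in Qpos, and the sixth, Csf3r, did not pass the test. Ly6g, the neutrophil antigen named in the gate, had 1, 0 and 18 counts in Qpos, against 58, 1157 and 1359 counts in Qneg. Apart from Csf3r, which was higher in Qpos in replicate 1, these neutrophil markers moved with the granule genes. The part of the neutrophil markers in the results was not tested. In bulk samples, fewer cells of a type and less RNA per cell cannot be told apart.

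Of the 10 granule genes 8 were lower in Qpos cells and 0 were higher, while the collagenase Mmp8 and the gelatinase Mmp9 did not pass the test. The 8 were Ltf, Camp, Ngp, Lcn2, Cd177, Olfm4, Chil1 and Pglyrp1, with adjusted p from 0.0141 to 0.0314 in the quasi-likelihood test of edgeR, in which the replicate number was a block and p was adjusted by Benjamini-Hochberg (threshold 0.05). Over all 14605 genes tested, 16.3% were called lower and 18.5% higher. These shares are the background for the gene list counts below. The median log2 fold change, Qpos over Qneg, was -5.90 over the 10 members, all of which passed the filter on low counts, and -0.01 over all tested genes. Every Qpos library lay below every Qneg library for 9 of the 10 members, Mmp8 being the exception, and for 29.4% of all tested genes.

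**Figure D1:**
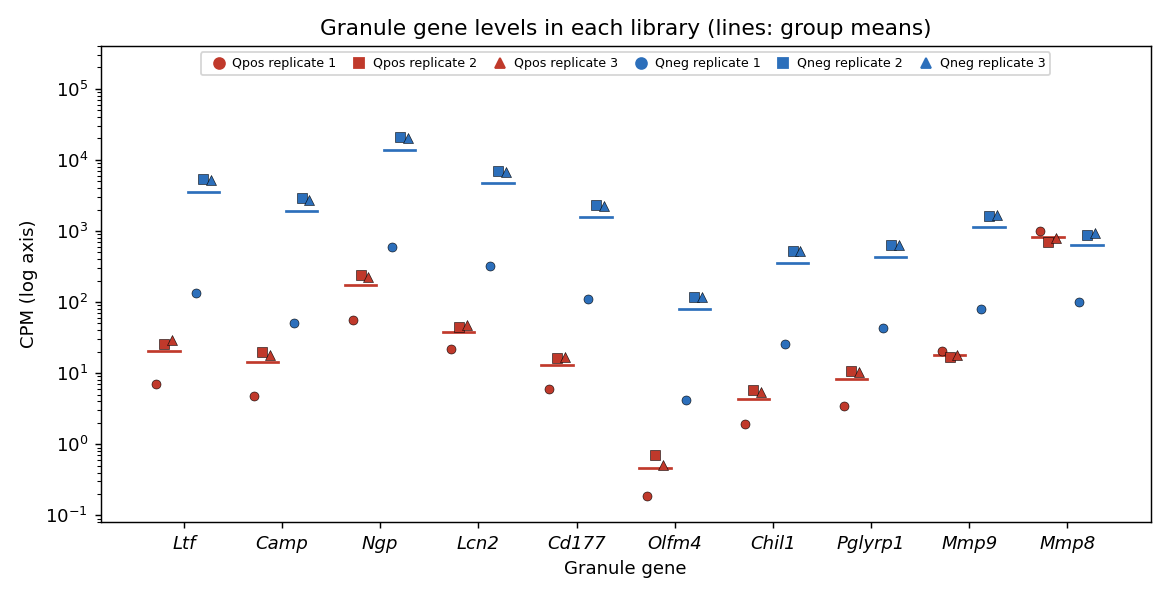
CPM of each granule gene (log axis) in the 3 Qpos libraries (left of each pair) and the 3 Qneg libraries (right), with a line at each group mean. Qneg replicates 2 and 3 lie far above Qneg replicate 1 for every gene, and Mmp8 is the gene whose groups overlap.

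These calls depended on which replicates were in the fit. Without replicate 1, edgeR called all 10 members lower, in a setting where 35.8% of tested genes were called lower and which rests on replicates 2 and 3 alone, whose member levels lay close to each other in both groups. Without replicate 2 or without replicate 3 it called 0 members, the smallest adjusted p being 0.0597 and 0.0656. Over all tested genes it called 1.18% lower without replicate 2 and 0% without replicate 3. At an unadjusted p under 0.05, 9 members were lower each time, as were 15.1% of tested genes without replicate 2 and 14.5% without replicate 3. On the same reduced sets, in analyses chosen after seeing the data, DESeq2 called 9 members lower, the same 8 and Mmp9, and limma-voom the same 8. DESeq2 called 12% of tested genes lower without replicate 2 and 11.8% without replicate 3, and limma-voom 6.02% and 4.18%.

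Ltf encodes lactoferrin, the iron-binding protein of secondary granules, and lies on chromosome 9 from 111019271 to 111042767 (mm10). Its level was 6.93, 25.8 and 29.4 CPM in Qpos libraries, against 135, 5326 and 5244 CPM in Qneg libraries. The groups did not overlap, and Qneg replicate 1 was nearer on a log scale to the Qpos libraries than to the other Qneg libraries. Ltf fell by 6.59 ± 1.06 (standard error) on the log2 scale, and the log2 difference within replicates 1, 2 and 3 was -4.27, -7.69 and -7.47.

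Lcn2 encodes lipocalin 2, which withholds iron from bacteria by binding their siderophores, on chromosome 2 from 32384633 to 32388252. Lcn2 was at 22.0, 44.3 and 47.5 CPM in Qpos libraries, against 323, 6857 and 6823 CPM in Qneg libraries. No Qpos library reached the lowest Qneg library. The gene fell by 6.22 ± 1.07 on the log2 scale, with differences of -3.87, -7.27 and -7.17 in replicates 1, 2 and 3.

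Camp and Ngp belong to the cathelicidin family and lie on chromosome 9, Camp from 109847379 to 109849617 and Ngp from 110419747 to 110423012. Camp encodes the precursor of the antimicrobial peptide CRAMP, and Ngp the neutrophilic granule protein. Camp had 4.71, 20.0 and 18.1 CPM in Qpos libraries, against 51.5, 2863 and 2767 CPM in Qneg libraries. Ngp had 55.1, 239.9 and 226 CPM in Qpos libraries, against 595, 20805 and 20458 CPM in Qneg libraries. The groups did not overlap for either gene. Camp fell by 6.12 ± 1.18 and Ngp fell by 5.54 ± 0.97 on the log2 scale, and the differences within replicates 1, 2 and 3 were -3.44, -7.16 and -7.26 for Camp and -3.43, -6.44 and -6.50 for Ngp.

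Pglyrp1, on chromosome 7, encodes a peptidoglycan recognition protein that binds bacterial cell walls. Pglyrp1 stood at 3.44, 10.7 and 10.3 CPM in Qpos libraries, against 43.1, 628 and 638 CPM in Qneg libraries. Chil1, on chromosome 1, encodes a chitinase-like lectin without chitinase activity. Its level was 1.93, 5.89 and 5.37 CPM in Qpos libraries, against 25.8, 518 and 521 CPM in Qneg libraries. For both genes all Qpos libraries were below all Qneg libraries. Pglyrp1 fell by 5.21 ± 0.67, the smallest change among the 8 genes called, and Chil1 fell by 5.69 ± 0.84 on the log2 scale.

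Cd177 encodes a glycoprotein of the neutrophil surface and granules, on chromosome 7 from 24743983 to 24760311. It was at 5.92, 16.3 and 17.0 CPM in Qpos libraries, against 109, 2325 and 2274 CPM in Qneg libraries. The groups did not overlap, and Cd177 fell by 6.22 ± 0.91 on the log2 scale. Olfm4 encodes olfactomedin 4, a granule glycoprotein found in a subset of neutrophils, and was the least abundant member. It had 7, 35 and 24 counts in Qpos libraries, against 185, 5256 and 5477 counts in Qneg libraries. Olfm4 fell by 6.99 ± 0.80 on the log2 scale, the largest change among the members and the one resting on the lowest counts. The 7 counts of Qpos replicate 1 have an exact 95% Poisson interval of 2.81 to 14.4, which covers counting error only.

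The metalloproteinases Mmp9 and Mmp8 differed from these genes and from each other. Mmp9, the gelatinase, lies on chromosome 2 from 164940780 to 164955850 and was at 20.2, 16.7 and 17.8 CPM in Qpos libraries, against 79.6, 1597 and 1698 CPM in Qneg libraries. Its groups did not overlap, and its Qpos values were the most even of any member, at 18.2 ± 1.77 CPM (SD, n = 3). The log2 difference was -1.98, -6.57 and -6.57 in replicates 1, 2 and 3. The fitted change of -5.32 ± 1.45 had an adjusted p of 0.0595 by edgeR with the replicate block and of 0.0102 without it. With the block and library totals alone it was 0.0450, by limma-voom 0.0271 and by DESeq2 1.7e-08. By edgeR with the other scalings or filters tried it was 0.0526 to 0.0628. By limma on the deposited normalized signal it was 0.0573.

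Mmp8, the neutrophil collagenase, lies on chromosome 9 from 7558456 to 7568485 and was abundant in Qpos cells. It was at 1004, 694 and 783 CPM in Qpos libraries, against 98.8, 887 and 948 CPM in Qneg libraries. Qneg replicate 1 was the low library, and the groups overlapped. The log2 difference was 3.34, -0.36 and -0.27 in replicates 1, 2 and 3, and the fitted change of 0.76 ± 0.99 did not pass the test (adjusted p = 0.573 by edgeR). Without replicate 1 the change was -0.30, in the opposite direction, with an adjusted p of 0.00167 by edgeR. That fit rests on replicates 2 and 3 alone, which lay close to each other, and it called 10890 of 14932 tested genes.

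**Figure D2:**
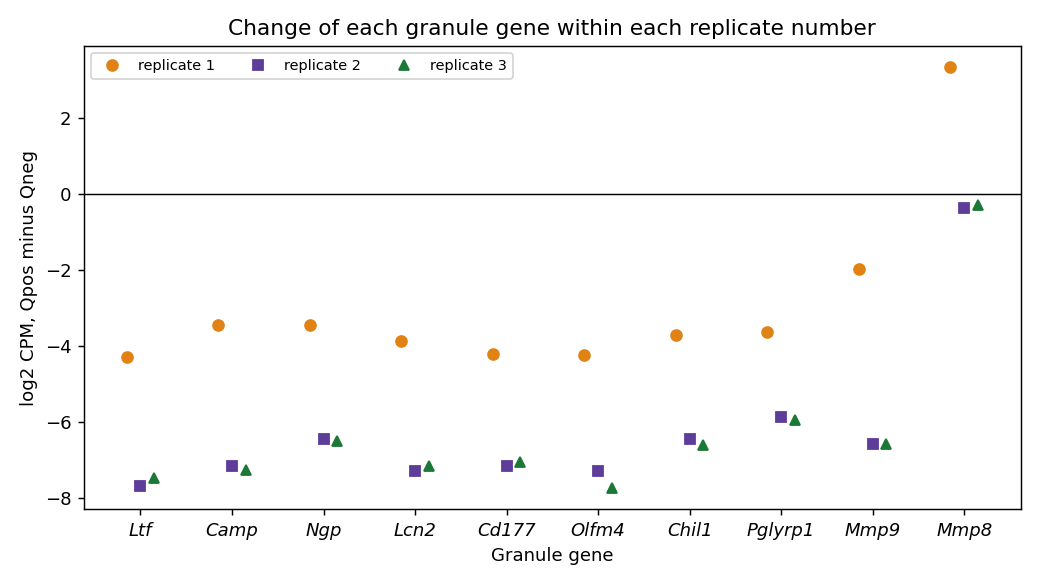
Difference in log2 CPM, Qpos minus Qneg, for each granule gene within replicate numbers 1, 2 and 3. For every gene but Mmp8 the 3 differences are below 0 and replicate 1 has the smallest, while for Mmp8 replicate 1 is at 3.34 and the others are just below 0.

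The falls were smaller in replicate 1 than in the others. Over the 8 called genes, Qneg exceeded Qpos by 10.8 to 22.9 times in replicate 1, by 58.7 to 206 times in replicate 2 and by 61.9 to 232 times in replicate 3. Replicate 1 was lower in both groups for these genes. The mean of Qpos replicates 2 and 3 was 2.08 to 4.23 times Qpos replicate 1, and that of Qneg replicates 2 and 3 was 14.7 to 54.7 times Qneg replicate 1. For Mmp9 the same figures were 0.855 in Qpos and 20.7 in Qneg, and for Mmp8 0.736 in Qpos and 9.29 in Qneg. The metalloproteinases thus were not lower in Qpos replicate 1 than in the other Qpos libraries.

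Taken as a pool, the members were a small part of every Qpos library and a large part of Qneg replicates 2 and 3. They took 0.100, 0.0950 and 0.102% of all counts in Qpos, against 0.188, 4.43 and 4.38% in Qneg. Without Mmp8 the shares were 0.0107, 0.0336 and 0.0328% in Qpos, against 0.176, 4.34 and 4.28% in Qneg. Mmp8 supplied 89.3, 64.6 and 67.8% of the members' counts in Qpos, against 6.74, 2.12 and 2.28% in Qneg, so it was the largest of the 10 members by count in Qpos libraries. Ngp supplied 4.90, 22.3 and 19.6% in Qpos, against 40.6, 49.6 and 49.3% in Qneg.

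Levels of different genes were compared per length, as RPKM, the CPM divided by the annotated exon length in kilobases. Ngp was the most abundant member in Qneg and came second to Mmp8 in Qpos, at 45.1, 196 and 185 RPKM in Qpos libraries, against 487, 17026 and 16741 RPKM in Qneg libraries. Among all genes Ngp ranked 1310, 274 and 285 in Qpos, against 108, 2 and 3 in Qneg. Mmp8 was at 414, 286 and 323 RPKM in Qpos libraries, against 40.7, 366 and 391 RPKM in Qneg libraries. It ranked 141, 186 and 163 in Qpos, against 1072, 138 and 131 in Qneg. Camp, the next after Ngp in Qneg replicates 2 and 3, was at 6.21, 26.4 and 23.8 RPKM in Qpos libraries, against 67.9, 3777 and 3651 RPKM in Qneg libraries. Olfm4 had the lowest RPKM of the members in all 6 libraries.

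Within a library, the proportion of Mmp8 to other granule transcripts differed between the groups. The RPKM ratio of Mmp8 to Mmp9 was 72.6, 60.5 and 64.3 in Qpos, against 1.81, 0.811 and 0.815 in Qneg. The RPKM ratio of Mmp8 to Ltf was 206, 38.2 and 37.9 in Qpos, against 1.04, 0.237 and 0.257 in Qneg. Neither ratio overlapped between the groups. This follows from the levels above, in which Ltf and Mmp9 separated the groups widely and Mmp8 did not. How many other genes give such a ratio was not counted.

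Relative to S100a8, the members other than Mmp8 varied far less over the libraries than in level. S100a8 is a calcium-binding protein abundant in neutrophil cytoplasm, and its gene was among those closest in profile to the members, as given below. The CPM ratio of Ngp to S100a8 was 1.72, 2.04 and 1.58 in Qpos, against 1.62, 1.81 and 1.73 in Qneg. The highest of these ratios was 1.29 times the lowest, whereas Ngp itself spanned 378-fold and S100a8 367-fold over the 6 libraries. Of the other members, the span of the ratio was smallest for Chil1 (1.87 times) and Camp (1.97 times), and it was 3.26 times for Olfm4, 5.05 times for Mmp9 and 405 times for Mmp8. Of the members, Ltf, Cd177 and Olfm4 were lower relative to S100a8 in every Qpos library than in any Qneg library. Mmp8 was higher in every Qpos library, at 5.49 to 31.3, against 0.0772 to 0.270 in Qneg, and the other members overlapped. The ratio was 0.216, 0.220 and 0.206 in Qpos, against 0.368, 0.464 and 0.445 in Qneg for Ltf, 0.185, 0.139 and 0.119 in Qpos, against 0.299, 0.202 and 0.193 in Qneg for Cd177, and 0.00577, 0.00606 and 0.00355 in Qpos, against 0.0116, 0.0102 and 0.00998 in Qneg for Olfm4. How many of all tested genes separate the groups in their ratio to S100a8 was not counted. Relative to Csf3r, another neutrophil marker, the members were not steady. The CPM ratio of Ngp to Csf3r was 0.438, 0.793 and 0.801 in Qpos, against 11.5, 35.1 and 34.4 in Qneg. Every member but Mmp8 was lower relative to Csf3r in every Qpos library than in any Qneg library, and Mmp8 was higher. The share of all tested genes that do so was not counted. These ratios describe 6 libraries that share sort and culture.

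**Figure D3:**
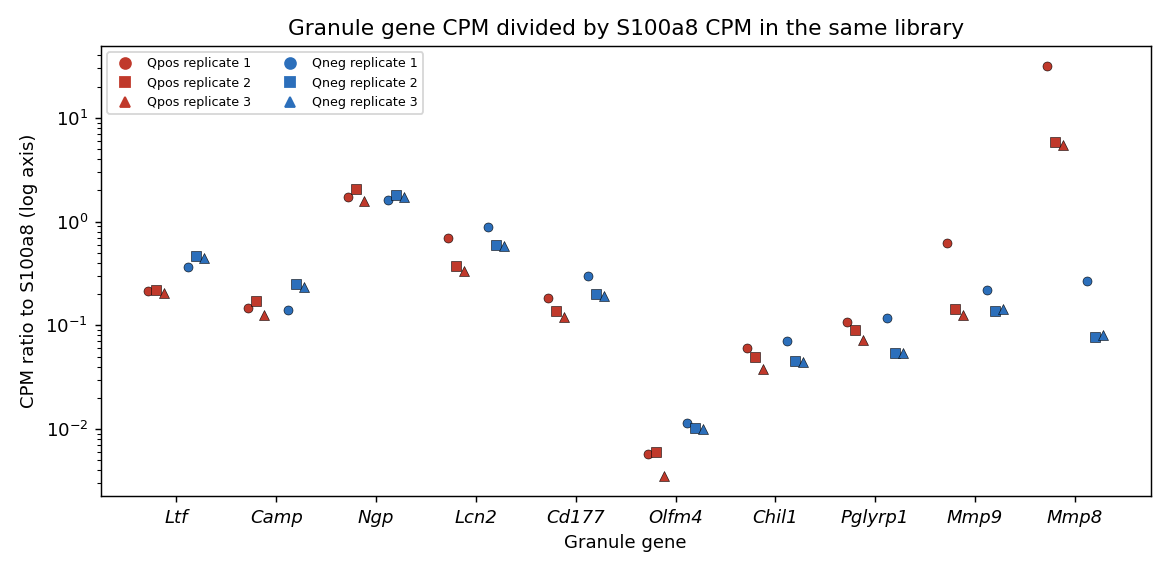
CPM of each granule gene divided by the CPM of S100a8 in the same library (log axis), Qpos libraries left of Qneg libraries. Ngp stays between 1.58 and 2.04, while Mmp8 runs from 0.0772 to 31.3 and is highest in Qpos.

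Csf3r, the receptor for the neutrophil growth factor G-CSF, and Itgam, which encodes CD11b of the gate, had other patterns. Csf3r was at 126, 303 and 282 CPM in Qpos libraries, against 51.6, 593 and 595 CPM in Qneg libraries. Its change of -0.29 ± 0.60 did not pass the test (adjusted p = 0.726 by edgeR), and it was above 0 without replicate 2 or replicate 3. Itgam was at 2716, 1820.4 and 1836 CPM in Qpos libraries, against 259.6, 2269 and 2211 CPM in Qneg libraries. Like Mmp8, Itgam was low in Qneg replicate 1 alone, with a change of 0.79 ± 1.00 that did not pass (adjusted p = 0.565 by edgeR) and that was -0.28 without replicate 1.

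Primary granule proteins are made at the earlier promyelocyte stage. Of 8 primary granule and early precursor genes 6 were lower and 0 higher, with a median log2 fold change of -2.16. Mpo, or myeloperoxidase, was at 68.8, 359 and 331 CPM in Qpos libraries, against 559, 694 and 654 CPM in Qneg libraries. Its groups did not overlap, but the change of -1.63 ± 0.54 did not pass the test (adjusted p = 0.0888 by edgeR). Elane, or neutrophil elastase, was at 35.0, 157 and 157 CPM in Qpos libraries, against 238, 520.1 and 486 CPM in Qneg libraries. It fell by 2.04 ± 0.30 on the log2 scale, and its adjusted p by edgeR was 0.0201 with the replicate block and 0.0567 without it. The protease inhibitor Serpinb1a fell by 4.51 ± 0.26 and the protease Prss57 fell by 2.11 ± 0.14. The mean of Qneg replicates 2 and 3 was 1.21 times Qneg replicate 1 for Mpo and 2.11 times for Elane but 14.1 times for Fcnb, which encodes ficolin B, against at least 14.7 times for the 8 called granule genes. The CPM ratio of Ltf to Mpo was 0.101, 0.0719 and 0.0889 in Qpos, against 0.241, 7.67 and 8.01 in Qneg. Over all 6 lists of related genes described here and below, edgeR called 35 distinct genes (Chil3 stands in 2 lists), 63 without replicate 1, 9 without replicate 2 and 0 without replicate 3. In the same fits it called 5091 of 14605, 10890 of 14932, 311 of 14831 and 0 of 14803 tested genes. The list counts thus rose and fell with those of all genes.

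**Figure D4:**
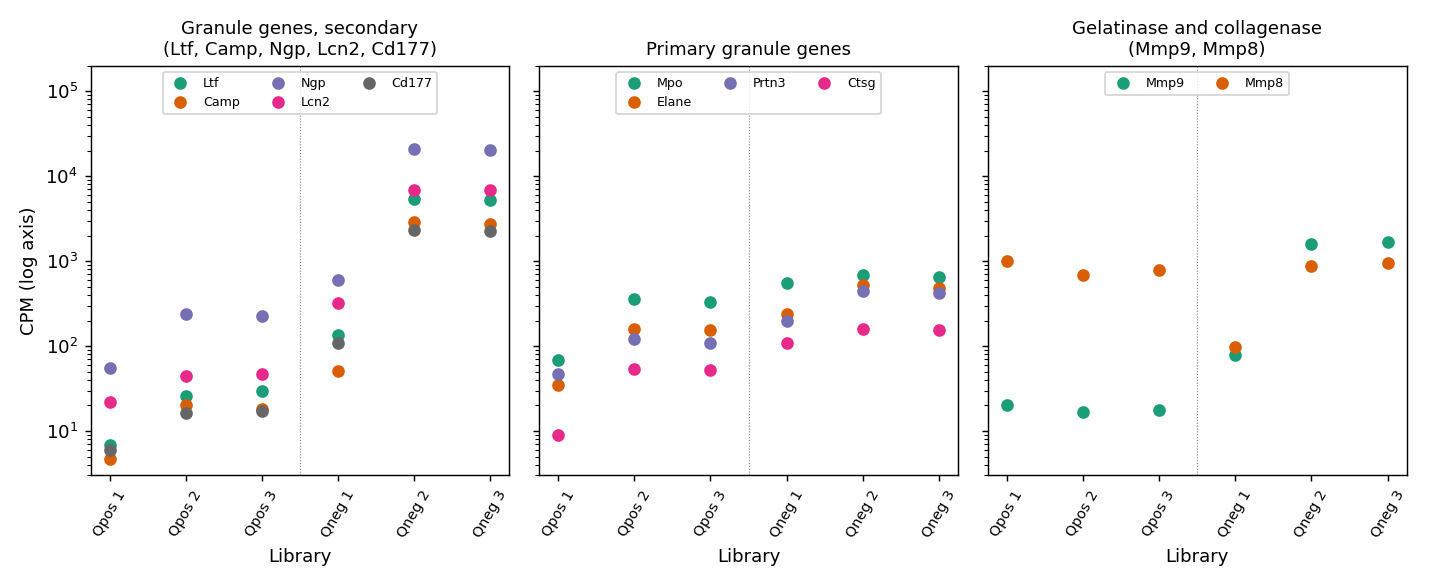
CPM (log axis) of 5 secondary granule genes, 4 primary granule genes and the 2 metalloproteinases in each library, Qpos left of Qneg. The primary granule genes plotted (Mpo, Elane, Prtn3 and Ctsg) differ little between Qneg replicate 1 and the other Qneg libraries, secondary granule genes differ widely, and in Qpos Mmp8 is high while Mmp9 is low.

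Of 15 other genes of secondary and tertiary granule proteins tested, 2 were lower, 2 were higher and 11 did not pass, with a median log2 fold change of -0.49. Over all tested genes 16.3% were lower and 18.5% higher, so this list was called about as often as genes in general. The membrane-anchored protease Mmp25 was at 2.62, 3.79 and 3.51 CPM in Qpos libraries, against 72.6, 319.6 and 328 CPM in Qneg libraries, and fell by 5.93 ± 0.52 on the log2 scale. Hpse, the heparan sulfate cutting enzyme heparanase, was at 381, 510.2 and 523 CPM in Qpos libraries, against 27.0, 63.8 and 62.3 CPM in Qneg libraries, a change of 3.29 ± 0.25. The other lower gene was the chitinase-like Chil3 (-3.58 ± 0.45) and the other higher gene the metal ion transporter Slc11a1 (4.08 ± 0.66). The groups overlapped for Chil3, with Qpos replicate 3 at 248 CPM and Qneg replicate 1 at 218 CPM.

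Neutrophil genes outside the granules were lower in 10 of 17 cases and higher in 0, with a median log2 fold change of -5.23. Of the 7 that did not pass, Csf3r, Anxa1, Padi4, G0s2 and Trem3 were higher in Qpos in replicate 1 and lower in replicates 2 and 3. Trem1 and Ifitm6 were lower in Qpos in each replicate. Hdc, the histamine-forming enzyme, fell by 5.37 ± 0.37 and the cytokine Il1f9 fell by 4.20 ± 0.28 on the log2 scale. Cxcr2, the chemokine receptor of mature neutrophils, fell by 5.23 ± 0.82, and S100a8 fell by 5.57 ± 0.94. Macrophage markers went the other way, 6 of 7 being higher and Csf1r not passing. Markers of T cells (4 of 4), B cells (4 of 4), NK cells (3 of 3 tested) and dendritic cells (3 of 3 tested) were lower, as was 1 of 4 monocyte markers, while of 4 eosinophil markers 1 was lower and 2 were higher, and the 1 erythroid marker tested did not pass. Adgre1, which encodes F4/80, was at 687, 938 and 1017 CPM in Qpos libraries, against 90.8, 196 and 189.7 CPM in Qneg libraries, a change of 2.53 ± 0.21.

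Of 9 regulators of granule genes 3 were lower, 1 was higher and 5 did not pass, with a median log2 fold change of -0.49. Cebpe, which encodes C/EBP epsilon, was at 4.73, 8.27 and 6.55 CPM in Qpos libraries, against 19.5, 247 and 237 CPM in Qneg libraries, and fell by 4.13 ± 0.86 on the log2 scale. Like the called granule genes, Cebpe was lower in Qneg replicate 1 than in the other Qneg libraries and did not overlap between groups. Gfi1, a repressor needed for neutrophil development, fell by 1.88 ± 0.23. Klf5, a zinc finger transcription factor, fell by 5.53 ± 0.99, with 8, 9 and 18 counts in Qpos, against 70, 1038 and 1175 in Qneg. Cebpa, which acts earlier and also in monocytes, was higher (2.20 ± 0.40).

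Of 11 receptors, partners and inhibitors of the members, 4 were higher, 2 were lower and 5 did not pass, with a median log2 fold change of 0.48. The metalloproteinase inhibitors Timp1 and Timp2 were both higher. Timp1 had 51, 24 and 28 counts in Qpos libraries, against 2, 2 and 5 counts in Qneg libraries, so its size is uncertain. Timp2 was at 212, 336 and 330.4 CPM in Qpos libraries, against 13.5, 85.5 and 86.0 CPM in Qneg libraries, a change of 2.60 ± 0.54. Lrp1, an endocytic receptor with lactoferrin among its many ligands, was higher (3.43 ± 0.69), as was Tmem219, a receptor for Chil1 (0.72 ± 0.15). Pecam1, which binds CD177 in humans, fell by 2.91 ± 0.44, and Slc22a17, a receptor for lipocalin 2, fell by 1.56 ± 0.38.

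Of 9 tested relatives of the members, 4 were higher, 2 were lower and 3 did not pass, with a median log2 fold change of 2.25. The higher ones were the metalloproteinases Mmp12, Mmp13 and Mmp14 and the transferrin gene Trf, a relative of Ltf. Mmp12, the macrophage elastase, was at 90.7, 31.8 and 37.6 CPM in Qpos libraries, against 3.97, 2.71 and 2.94 CPM in Qneg libraries, a change of 3.91 ± 0.27. Pglyrp2 was at 1.00, 0.855 and 0.444 CPM in Qpos libraries, against 19.1, 8.29 and 8.14 CPM in Qneg libraries, and fell by 3.90 ± 0.32 on the log2 scale. Unlike its relative Pglyrp1, Pglyrp2 was highest in Qneg replicate 1.

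The genes outside the list with the most similar profile were sought by the root mean square distance, in log2 units over the 6 libraries, from the median centred log2 CPM of the members, requiring a mean log2 CPM of 3 or more. The 8 closest were S100a9 (0.194), S100a8 (0.273), Wfdc21 (0.314), Itgb2l (0.329), Cxcr2 (0.400), Retnlg (0.434), Abca13 (0.472) and Hdc (0.522). S100a9, the partner of S100a8 in calprotectin, was at 94.0, 207 and 216 CPM in Qpos libraries, against 1100.2, 21929 and 22161 CPM in Qneg libraries. Among the members Chil1 (0.167) and Cd177 (0.186) lay nearest to that profile, with Mmp9 at 0.716 and Mmp8 at 3.46.

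Camp, Ngp and Ltf lie within 1195 kb of chromosome 9. Of 17 other tested genes from the start of Camp to the end of Ltf, 2 were lower, 1 was higher and the median log2 fold change was -0.02. Over all tested genes 16.3% were lower and 18.5% higher.

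Promoter windows from RefSeq (GRCm38.p6, 250 bases before to 50 after the start site) were matched for 9 of the 10 members, all but Mmp9. The C/EBP-like motif TTNNGCAA was found on either strand in 4 of the 9, against 10.8% of 32851 windows in the table. The windows of Ltf, Ngp, Lcn2 and Mmp8 are shown 5′ to 3′ on the gene's strand, matches in capitals, because they set members that fell beside Mmp8, which did not pass the test. They lie at chr9:111019042-111019341 (plus strand), chr9:110419558-110419857 (plus strand), chr2:32387690-32387989 (minus strand) and chr9:7558179-7558478 (plus strand).
Ltf: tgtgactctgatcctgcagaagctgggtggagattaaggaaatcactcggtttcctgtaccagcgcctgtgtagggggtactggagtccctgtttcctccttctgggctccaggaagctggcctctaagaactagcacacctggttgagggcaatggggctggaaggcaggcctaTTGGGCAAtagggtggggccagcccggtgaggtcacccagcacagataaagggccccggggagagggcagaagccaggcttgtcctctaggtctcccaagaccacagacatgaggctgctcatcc
Ngp: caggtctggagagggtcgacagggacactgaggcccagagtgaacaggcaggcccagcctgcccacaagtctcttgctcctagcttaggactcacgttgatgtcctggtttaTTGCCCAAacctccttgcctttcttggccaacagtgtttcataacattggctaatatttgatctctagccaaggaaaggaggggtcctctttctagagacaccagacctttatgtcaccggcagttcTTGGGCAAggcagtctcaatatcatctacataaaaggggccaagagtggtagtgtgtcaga
Lcn2: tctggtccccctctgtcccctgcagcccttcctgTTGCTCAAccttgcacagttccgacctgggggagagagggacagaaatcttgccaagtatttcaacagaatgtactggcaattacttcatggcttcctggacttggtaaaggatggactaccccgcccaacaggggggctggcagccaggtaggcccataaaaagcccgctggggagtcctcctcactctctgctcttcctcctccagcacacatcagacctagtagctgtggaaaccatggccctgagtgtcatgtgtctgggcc
Mmp8: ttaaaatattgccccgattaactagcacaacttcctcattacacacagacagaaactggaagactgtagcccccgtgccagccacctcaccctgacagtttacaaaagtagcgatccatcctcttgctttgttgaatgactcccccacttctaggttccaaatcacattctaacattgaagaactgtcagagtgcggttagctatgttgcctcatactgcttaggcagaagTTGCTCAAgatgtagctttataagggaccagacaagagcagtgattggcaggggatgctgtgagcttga
The match lies at -75 to -68 from the start site in Ltf, at -138 to -131 and -11 to -4 in Ngp, at -216 to -209 in Lcn2 and at -19 to -12 in Mmp8. Ltf and the nearer Ngp match have the same 8 letters, TTGGGCAA, and Lcn2 and Mmp8 share TTGCTCAA, which matches on the opposite strand. The farther Ngp match, TTGCCCAA, also matches on the opposite strand, where it reads TTGGGCAA. The windows of Camp, Cd177, Olfm4, Chil1 and Pglyrp1, which also fell, do not hold these letters. The PU.1-like GAGGAA was in 6 of the 9 windows, against 28.3% of all, and TATAAA in 2, against 13.6%. An NF-kappaB-like motif (GGGA and CC with 4 bases between) was in 4, against 20.7%. A match describes letters only, and binding was not measured.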

How the data were processed

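Libraries were made from RNA with a stranded kit, per the labels' protocols. The authors' deposited raw table gives estimated counts for each gene, already whole numbers, and FastQC, Salmon and mm10 are named, with no version, per the submitters' processing notes. No source used here states the annotation release or the use of strand in counting. The authors' deposited normalized signal, whose formula no source used here states, served only as an alternative. Exon lengths, coordinates and missing symbols came from GENCODE M21, where 21625 of 21847 identifiers were found.

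After filterByExpr (minimum count 10, minimum total 15) and TMM scaling, 14605 genes were tested in edgeR 4.0.16 (R 4.3.3) by quasi-likelihood, with the replicate block taken from the design text. Across genes, deviations from the group means correlated at 0.198, 0.0769 and 0.158 between libraries of replicates 1, 2 and 3. Between replicates 2 and 3 of opposite groups they correlated at 0.116 and 0.147. Between replicate 1 and replicates 2 or 3 of the opposite group they correlated at -0.185 to -0.114. The data alone thus did not single out the pairs of replicates 2 and 3, while replicate 1 stood apart in both groups. Standard errors came from the F statistic, and log2 CPM used a prior count of 2. The code was tested on simulated data, and matplotlib 3.10.9 drew the figures.

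The members and lists were chosen with earlier results of these data known. Text names all members, the 2 lowest p-values of each list, the 8 nearest profiles, and a set of marker, gate and granule genes. Chil3, Slc11a1, Cebpa, Timp2, Lrp1, Tmem219, Slc22a17, Mmp13, Mmp14, Trf, Fcnb, Csf1r, Anxa1, Padi4, G0s2, Trem3, Trem1 and Ifitm6 were named after their values were seen.

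Alternatives were other scalings (median of ratios, upper quartile, library totals), no filter, a filter of 50 counts in 3 libraries, DESeq2 1.42.0, limma-voom (limma 3.58.1), the signal as log2(value + 1) with limma, no block, single replicates left out, and the sum of replicates 2 and 3. A comparison of the Camp and Ngp proteins was not made.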

Additional observations from a re-analysis of the deposited data

How the results depend on the processing

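All 8 members called lower kept that call under the other scalings, either other filter, DESeq2, limma-voom, the normalized signal and no replicate block. Library totals alone moved the median log2 fold change of all tested genes to -0.36. In that setting the log2 fold changes of the 8 called members were -7.29 to -5.54, far larger than that shift. Without the replicate block 9 members and 5969 genes were called, against 8 and 5091 with it, and Elane lost its call. Leaving out a replicate, edgeR called 0 to 10890 genes, 0 to 10 members as lower and 0 to 63 list genes (35 in full). Without replicate 2, DESeq2 called 3294 genes and limma-voom 1625, against 311 by edgeR. Without replicate 3 they called 3226 and 1167 genes, and limma-voom 23 list genes, against 0 by edgeR, which had 4209 genes at an unadjusted p under 0.05. With replicates 2 and 3 summed, edgeR called 0 genes, 0 members and 0 list genes (4488 genes at an unadjusted p under 0.05), limma-voom 1405 genes and 8 members, and DESeq2 3489 genes and 8 members, among which Mmp9 took the place of Ngp (adjusted p by DESeq2 = 3.1e-05 for Mmp9 and 0.196 for Ngp).

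The direction changed for Mmp8 (log2 fold change -0.30 to 1.54 by edgeR over the sets without a replicate, lowest without replicate 1), Itgam (-0.28 to 1.56, likewise) and Csf3r (-1.01 to 0.16). For Csf3r it was above 0 without replicate 2 (0.107 by edgeR, 0.0806 by DESeq2, 0.292 by limma-voom), without replicate 3 (0.158, 0.134 and 0.325) and with replicates 2 and 3 summed (0.150, 0.120 and 0.375). The cause was not tested. Of the members, depth limited Olfm4 most.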
